A study of Mus musculus with 19 samples.

Results

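The genes described here are the precursors and receptors of 2 related neuropeptides, vasoactive intestinal peptide (VIP) and pituitary adenylate cyclase-activating polypeptide (PACAP). They were taken from the table by gene name: Vip and Adcyap1, which encode the peptide precursors, and Vipr1, Vipr2 and Adcyap1r1, which encode the receptors. All 5 were found among the 51789 genes of the count table. The tissue sequenced was dorsal hippocampus, in 19 libraries from male mice of the C57BL/6J strain aged 2 to 4 months. In experiment 1 every mouse was tTA+ (carrying the tetracycline transactivator, which drives transgenes under a tet promoter) and had been exposed to SOR, an abbreviation that the labels do not expand. In that experiment 5 mice were also DN+, the label for the Nr4A dominant negative, a transgene product that blocks this family of transcription factors, and 6 control mice were DN-. Experiment 2 held DN- control mice only, 4 exposed to SOR and 4 kept in the homecage. Of its SOR mice, replicate 1 was tTA- and 3 were tTA+. Of its homecage mice, replicates 1 and 2 were tTA- and 2 were tTA+. The labels name neither the promoter of tTA nor the mouse line, and the table gives no value for the DN transgene itself. The study concerned endoplasmic reticulum chaperones and memory.

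VIP and PACAP are secreted peptides of 1 family that act on class B G protein-coupled receptors. VPAC1 (from Vipr1) and VPAC2 (from Vipr2) bind both peptides, while PAC1 (from Adcyap1r1) prefers PACAP. The receptors couple mainly to the stimulatory G protein Gs, adenylyl cyclase and protein kinase A. In the hippocampus, VIP marks a class of interneurons, many of which inhibit other interneurons, and PAC1 is well known in the granule cells of the dentate gyrus.

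Totals ranged from 22258159 to 66991576 counts per library. The smallest total belonged to SOR replicate 3 of experiment 2, with 27815 genes detected against 30165 to 32495 in the other 18 libraries. Libraries varied more in experiment 2 than in experiment 1, with a biological coefficient of variation of 0.166 against 0.094. Hippocampal markers fixed for the labelled tissue were present in every library: Wfs1 and Fibcd1, markers of CA1 pyramidal cells, at 68.2 to 116 and 76.7 to 153 CPM (counts relative to the library total, scaled by TMM within each experiment), and Prox1, a granule cell marker, at 48.9 to 131 CPM. Choroid plexus markers, from tissue of the ventricle beside the hippocampus, varied most, from 19.8 to 4124 CPM in sum.

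The 5 genes lie on 5 chromosomes, all on the plus strand (GENCODE M21, GRCm38). Vip (ENSMUSG00000019772.5) spans 5639218 to 5647617 on chromosome 10 and Adcyap1 (ENSMUSG00000024256.6) spans 93199017 to 93206537 on chromosome 17. Vipr1 (ENSMUSG00000032528.5) spans 121642716 to 121672954 on chromosome 9. Vipr2 (ENSMUSG00000011171.11) spans 116077726 to 116146261 on chromosome 12, and Adcyap1r1 (ENSMUSG00000029778.12) spans 55451978 to 55501451 on chromosome 6. The annotation gives the peptide genes 10 and 13 distinct exons, and the receptor genes 21, 24 and 28. Within the span of Vipr2 lies an antisense gene, Gm20658, which shares 0 exon bases with it and had 0 to 6 counts per library. Whether the counting used strand is not given in the sources used here.

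To show how the promoters of the peptide genes read, the stretches that hold the longest run of letters common to both are given, from RefSeq (GRCm38.p6, plus strand), with that run in capitals. They cover chr10:5639096-5639191 and chr17:93198883-93198978.
Vip: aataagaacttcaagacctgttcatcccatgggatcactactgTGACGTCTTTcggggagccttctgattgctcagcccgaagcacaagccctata
Adcyap1: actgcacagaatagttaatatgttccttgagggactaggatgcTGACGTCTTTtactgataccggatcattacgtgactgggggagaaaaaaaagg
The shared run of 10 letters starts 79 bases before the start site of Vip and 91 bases before the first start site of Adcyap1. It was looked for after the data were seen, and 23 of 32851 promoter windows (0.07%) hold it on either strand. As the run was picked for being in both windows, that share is no background for finding it there, and how long a run any pair of windows shares was not tested. Each window runs from 250 bases before a start site to 50 after it, and the 5 genes have 6 windows, because Adcyap1 has 2 start sites there. The run begins with TGACG, the core of the cAMP response element, which is the binding site of the transcription factor CREB that protein kinase A activates. TGACG on either strand is in 20.81% of all windows. It was in the Vip window, in both Adcyap1 windows (the same copy) and, as CGTCA 13 bases before the start site, in the Vipr1 window. The full palindrome TGACGTCA, in 1.79% of windows, was in none of the 6, nor was AAAGGTCA, the element that Nr4A proteins bind as monomers, in 1.51%.

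The windows of the peptide genes and of the receptor genes differed in base composition. G and C made up 41.7% of the Vip window and 39.0% and 45.7% of the Adcyap1 windows, against a median of 52.7% over all windows. In the receptor genes they made up 73.7% (Vipr1), 65.3% (Vipr2) and 67.3% (Adcyap1r1). The CpG count was 4 in Vip and 7 and 10 in Adcyap1, and 35, 18 and 17 in the receptors in the same order. TATAAA, the TATA box core, was read on the strand of the gene 30, 147 and 157 bases before the start site of Vip and 58 bases before the second start site of Adcyap1, and in no receptor window. On either strand it is in 13.6% of all windows. These matches describe letters and are no evidence of binding.

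PAC1 was the most abundant receptor of the family in this tissue by RNA level per length. Over the 16 tTA+ libraries, Adcyap1r1 was at 22.8 ± 1.83 CPM per kb of merged exons (SD, n = 16), Vip at 5.29 ± 1.04, Vipr1 at 3.51 ± 0.272, Adcyap1 at 1.24 ± 0.435 and Vipr2 at 0.953 ± 0.378. Adcyap1r1 therefore stood above the others in every tTA+ library, with a lowest value of 17.96 CPM per kb against a highest of 7.51 for Vip. The ranges of Vip (3.74 to 7.51) and Vipr1 (3.03 to 3.98) overlapped, as did those of Adcyap1 (0.753 to 2.54) and Vipr2 (0.424 to 1.83). Vipr1 and Adcyap1, next to each other in that order, did not overlap. The order was the same in every group, except that scaling by the longest transcript placed Vipr2 above Adcyap1 in the experiment 1 controls.

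The genes also differed in how steady they were from library to library. Over the tTA+ libraries the coefficient of variation of CPM was 7.74% for Vipr1 and 8.01% for Adcyap1r1, against 19.6% for Vip, 35.2% for Adcyap1 and 39.6% for Vipr2. Vipr2 ran from 1.89 to 8.15 CPM in these libraries, a range of 4.31-fold, while Vipr1 ran from 17.6 to 23.1 CPM, a range of 1.31-fold. In a whole-tissue sample, fewer cells of a type and less RNA per cell cannot be told apart.

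**Figure D1:**
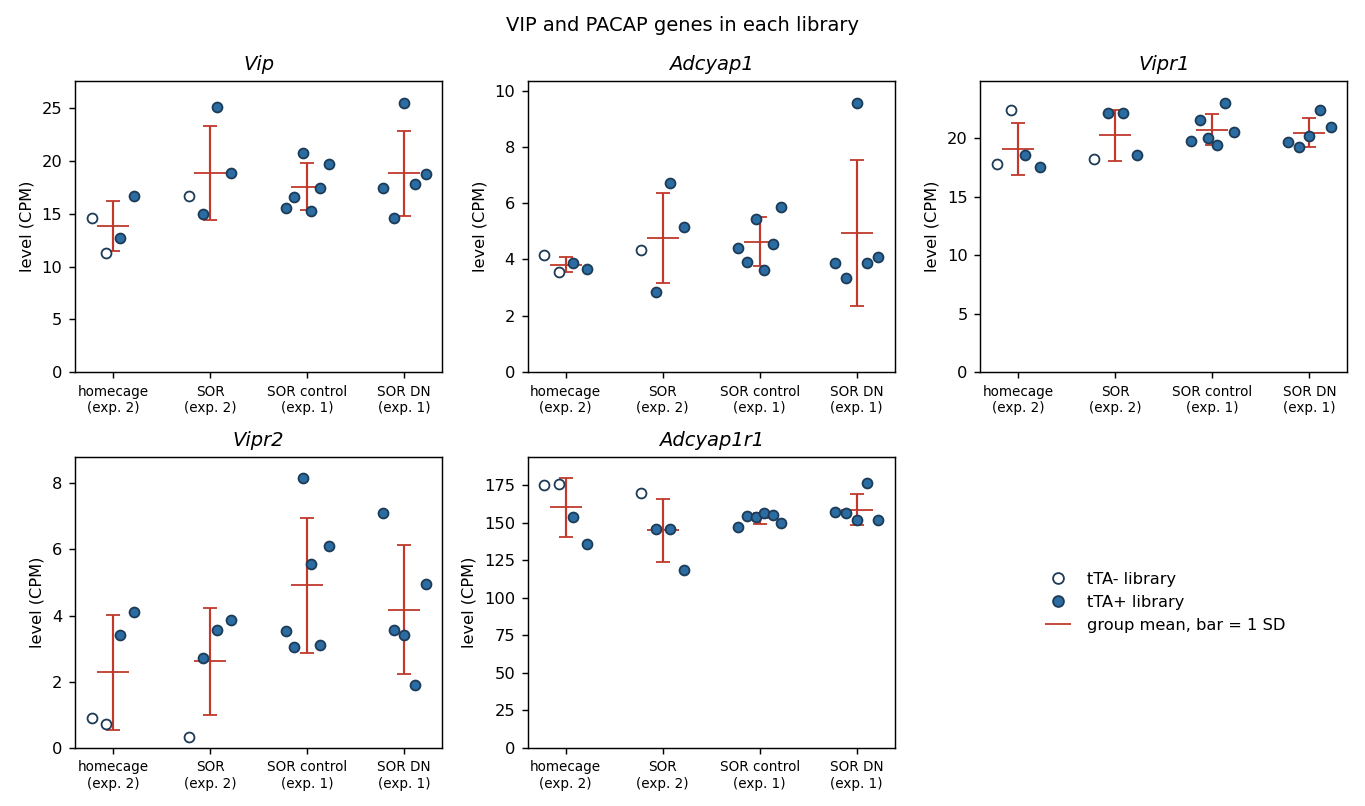
Level of each gene (CPM, linear axis from 0) in each of the 19 libraries by group, with open points for tTA- and filled points for tTA+ libraries, and the group mean with 1 SD in red. The 3 tTA- libraries lie lowest for Vipr2 (0.310 to 0.905 CPM), and DN replicate 3 lies highest for Adcyap1 (9.57 CPM).

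Vipr2 was the member that changed with tTA genotype. In experiment 2 its RNA rose from 0.639 ± 0.303 CPM in the tTA- mice (SD, n = 3) to 3.53 ± 0.531 CPM in the tTA+ mice (SD, n = 5), a fitted log2 fold change of 2.65 (SE 0.297, 6.28-fold). The RNA of PAC1 was lower in every tTA+ than in every tTA- library, but did not pass the adjusted test. Neither the peptide precursors nor Vipr1 passed it.

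The tTA- libraries were at 0.310 (SOR replicate 1), 0.905 and 0.703 CPM (homecage replicates 1 and 2) for Vipr2. The tTA+ libraries of SOR replicates 2, 3 and 4 were at 2.72, 3.57 and 3.86 CPM, and those of homecage replicates 3 and 4 at 3.40 and 4.11 CPM. The groups did not overlap, and within the homecage mice alone the log2 fold change was 2.24. The lower values rest on 15, 27 and 30 counts, and all 3 libraries lay above the 0.219 CPM that the filter on low counts required. The edgeR quasi-likelihood test gave Vipr2 an adjusted p of 0.00414, with a 95% interval of 1.99 to 3.31. Without SOR replicate 1, the lowest library, the log2 fold change was 2.23 and the edgeR adjusted p was 0.0585, which ends the call. In each of the other 7 fits that left out 1 library Vipr2 stayed called. With the replicate number as a block, Vipr2 was at 2.30 and was not called. In that fit only replicate 2 differs in genotype within its number. The 11 tTA+ mice of experiment 1, scaled separately, ran from 1.89 to 8.15 CPM, so that all 16 tTA+ libraries lay above the highest tTA- library.

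As the background of this comparison, 82 of 22904 genes (0.358%) were called between tTA+ and tTA- mice, 25 higher and 57 lower, and 1330 genes (5.81%) had groups that did not overlap. Of the 5 genes, 1 was called and 2 had groups that did not overlap, Vipr2 and Adcyap1r1.

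Vipr2 sits beside genes that moved the other way. All 4 of the genes fixed as its neighbours on chromosome 12 were lower in the tTA+ mice. Wdr60, a dynein component of the cilium, was at 14.4 ± 1.73 CPM against 27.4 ± 3.28 in tTA- mice (log2 -0.94, edgeR adjusted p 0.0168). Esyt2, a tether between the endoplasmic reticulum and the plasma membrane, was at 76.3 ± 4.79 against 150.3 ± 13.97 CPM (log2 -0.95, edgeR adjusted p 0.00151). Ncapg2, a condensin II subunit, and Ptprn2, a protein of secretory granules, changed by -0.84 and -0.71 on the log2 scale (edgeR adjusted p 0.0365 and 0.0276). These 4 genes lay between 0.434 and 0.732 of their tTA- mean in every tTA+ library, while Vipr2 lay between 4.25 and 6.43 times its own. Their median log2 fold change was -0.89, beside 0.01 over all genes tested. As background, a widely used forebrain tTA line driven by the Camk2a promoter is known to carry its insertion at this locus. Whether these mice carry that insertion was not tested, and the table gives 1 count per gene, so the exons that the Vipr2 reads came from are not known. Between DN and control mice, all tTA+, 0 of the 4 neighbours were called by edgeR, 0 had an unadjusted p under 0.05, and their median was 0.00.

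**Figure D2:**
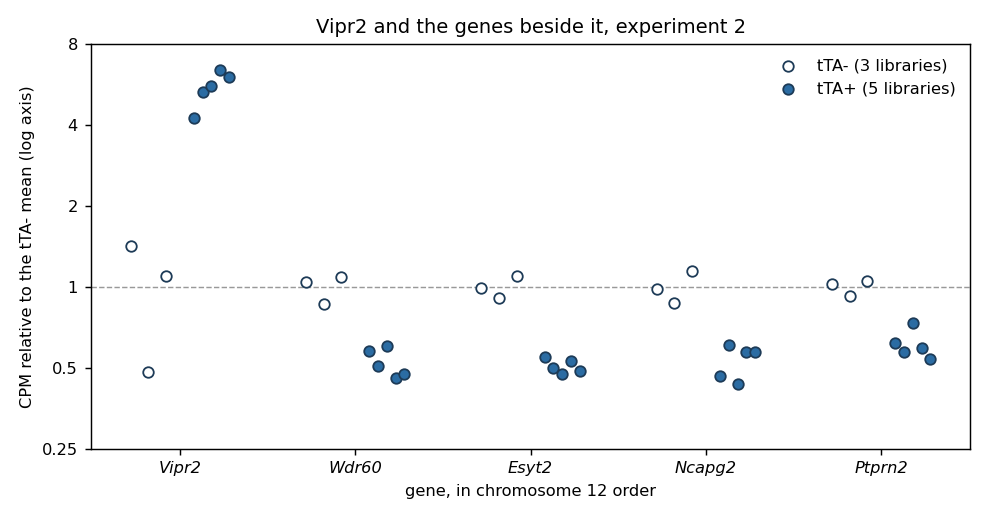
CPM of Vipr2 and of 4 genes beside it in the 8 libraries of experiment 2, each divided by the mean of the 3 tTA- libraries (log axis, dashed line at 1), with open points for tTA- and filled points for tTA+ libraries. In the tTA+ libraries Vipr2 lies at 4.25 to 6.43 and its neighbours lie at 0.434 to 0.732.

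Adcyap1r1 was at 169.6, 175.5 and 176.1 CPM in the 3 tTA- libraries. In the tTA+ libraries, SOR replicates 2 to 4 were at 145.7, 145.6 and 118.6 CPM, and homecage replicates 3 and 4 at 153.8 and 135.6 CPM. The tTA+ range thus ended below the tTA- range, and the tTA- libraries were close to each other. The means were 139.9 ± 13.5 (SD, n = 5) and 173.7 ± 3.56 CPM (SD, n = 3), with a log2 fold change of -0.29 (SE 0.0974, 95% interval -0.51 to -0.08). With p 0.0124 before and 0.548 after adjustment by edgeR, the gene was not called. The tTA+ mice of experiment 1 were at 147.0 to 176.8 CPM, although experiments were scaled apart. Only DN replicate 4 (176.8 CPM) reached the tTA- values, and the next highest library, DN replicate 1, was at 157.5 CPM.

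Most dentate granule cell markers were lower in tTA+ mice as well. Of 8 markers, 7 had lower and 1 had higher fitted values, and 6 had an unadjusted p under 0.05 by edgeR. The 4 called were Pla2g2f (log2 -2.78), C1ql2 (-2.19), Trpc6 (-1.21) and Dsp (-1.06), with edgeR adjusted p from 1.417e-04 to 0.0191. Lct (-0.01) and Plk5 (0.03) were nearly level. None of the 8 markers was at 0 in any library, and their median was -0.86. Their summed level was 389.8 to 471.0 CPM in tTA+ and 660.9 to 707.0 CPM in tTA- libraries. Like the level of Adcyap1r1, this sum was lower in every tTA+ library of the experiment. Its part in the differences in Adcyap1r1 and Vipr2 was not tested.

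Vip was at 16.7, 14.6 and 11.3 CPM in the tTA- libraries (SOR replicate 1, homecage replicates 1 and 2). Its tTA+ values were 14.95, 25.1 and 18.9 CPM (SOR replicates 2 to 4) and 12.7 and 16.7 CPM (homecage replicates 3 and 4), so the groups overlapped. Its log2 fold change with tTA was 0.20 (95% interval -0.20 to 0.60), and it was 0.11 without homecage replicate 4 or SOR replicate 3 and 0.12 without homecage replicate 2, each left out alone. That of Adcyap1 was 0.05 (-0.51 to 0.61) and that of Vipr1 was -0.01 (-0.29 to 0.28), and each of the 3 had an edgeR adjusted p of 0.9999. The 11 interneuron markers summed to 1280 to 1569 CPM in tTA+ and 1201 to 1268 CPM in tTA- libraries, and none was at 0. Of these 11, 9 had higher fitted values (median 0.26), 4 had an unadjusted p under 0.05 and 1 was called: Tac2, the neurokinin B precursor, was higher in tTA+ mice (log2 1.52, edgeR adjusted p 0.0299). Of 6 cortical markers, 4 had higher and 2 lower fitted values (median 0.23), and 1 was called: Tbr1, a transcription factor of cortical excitatory neurons, was higher (log2 1.63, edgeR adjusted p 0.00117). The cortical sum was 119.1 to 136.6 CPM in tTA+ and 100.5 to 103.4 CPM in tTA- libraries. Tbr1 had the widest gap in mean level, at 37.5 against 12.6 CPM. Cux2 (18.8 against 13.3) and Rspo1 (1.04 against 0.618) also had higher means in tTA+ mice. Rorb (37.5 against 38.15), Fezf2 (18.9 against 20.9) and Lamp5 (15.6 against 16.6) had lower ones. Of 3 mossy cell markers, 0 were called by edgeR and 1 had an unadjusted p under 0.05, Calb2, which is also among the 11 interneuron markers. Their median was 0.63, with sums of 29.6 to 52.1 against 26.0 to 37.9 CPM. The part of these markers in the differences of the 5 genes was not tested.

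**Figure D3:**
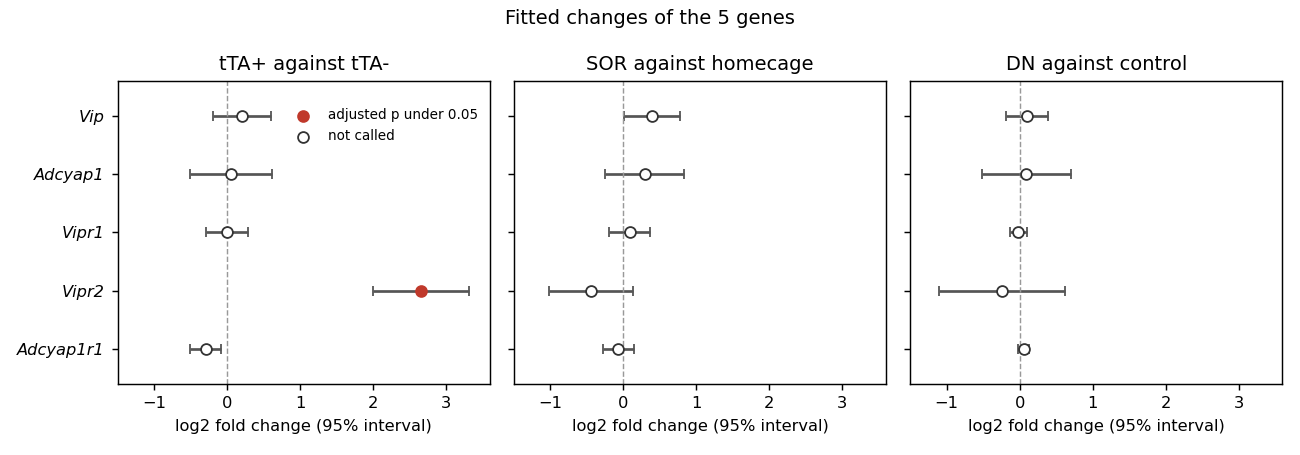
Fitted log2 fold changes of the 5 genes in the 3 comparisons, with 95% intervals from the edgeR fit and a dashed line at 0. The filled point marks an adjusted p under 0.05, reached by Vipr2 in the tTA comparison (2.65), and the other 14 points are open.

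Exposure to SOR called none of the 5 genes, with tTA genotype in the model. VIP precursor RNA showed the smallest p, at 18.9 ± 4.44 CPM after SOR against 13.8 ± 2.34 CPM in the homecage (SD, n = 4 each). PACAP precursor RNA was at 4.76 ± 1.61 against 3.82 ± 0.262 CPM. The background was 11 called of 22904 genes (0.048%), all higher after SOR, and 1292 genes (5.64%) with groups that did not overlap. All 5 genes overlapped between groups. By edgeR 0 of the 5 were called and 1 had an unadjusted p under 0.05, and the same 2 counts came from DESeq2.

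For Vip, SOR replicates 1 to 4 read 16.7, 14.95, 25.1 and 18.9 CPM, and homecage replicates 1 to 4 read 14.6, 11.3, 12.7 and 16.7 CPM. SOR replicates 3 and 4 lay above every homecage library, while SOR replicates 1 and 2 lay below homecage replicate 4. The log2 fold change was 0.40 (SE 0.173, 95% interval 0.01 to 0.78), with p 0.0449 before and 0.820 after adjustment by edgeR. SOR replicate 3, the smallest library, was the highest for Vip, and without it the value was 0.28. That library also had the highest sum of the 11 interneuron markers, 1569 CPM, against 1268 to 1422 in the other SOR libraries and 1201 to 1421 in the homecage. Of these markers 0 were called by edgeR after SOR, 0 had an unadjusted p under 0.05, and their median log2 fold change was 0.16, beside 0.00 over all genes tested. The 8 choroid plexus markers all had higher fitted values after SOR, with a median of 2.18, 4 of them at an unadjusted p under 0.05 and 0 called by edgeR. Their sums were 984.5, 2191, 23.4 and 56.2 CPM in SOR replicates 1 to 4, and 44.4 to 172.5 CPM in the homecage, so the groups overlapped, and none of the 8 was at 0 in any library. The high sums came from SOR replicates 1 and 2, whereas SOR replicate 3, highest for Vip and Adcyap1, had the lowest sum of the experiment. The part of either marker list in the differences in Vip and Adcyap1 was not tested.

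For Adcyap1, SOR replicates 1 to 4 read 4.34, 2.84, 6.71 and 5.16 CPM, against 4.16 (replicate 1), 3.56, 3.89 and 3.66 CPM in the homecage. The homecage libraries were close together and the SOR libraries spread on both sides of them. The log2 fold change was 0.29 (SE 0.243, 95% interval -0.25 to 0.83, edgeR adjusted p 0.849), and leaving out SOR replicate 3 gave 0.13 while leaving out SOR replicate 2 gave 0.46.

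The receptors were not called after SOR either, with fitted differences from -0.44 (Vipr2) to 0.09 (Vipr1) on the log2 scale. For Vipr1 the SOR libraries read 18.2, 22.2, 22.2 and 18.5 CPM and the homecage libraries 17.8, 22.4, 18.6 and 17.6 CPM, and its log2 fold change was 0.09 (95% interval -0.19 to 0.36). It was 0.21 without SOR replicate 1 and 0.03 without homecage replicate 4. For Adcyap1r1 the value was -0.07 (-0.28 to 0.14), and -0.01 without either homecage replicate 3 or SOR replicate 4, each left out alone. For Vipr2 the model gave -0.44 (SE 0.259, 95% interval -1.01 to 0.13, edgeR adjusted p 0.845), while leaving tTA out of it gave 0.15. Without SOR replicate 1, the tTA- library of that group, the value was -0.15, and without homecage replicate 3 it was -0.66. Of the mice compared, 3 of the 4 in SOR and 2 of the 4 in the homecage were tTA+. Among tTA+ mice alone Vipr2 was at 3.38 ± 0.594 CPM after SOR (SD, n = 3) and at 3.76 ± 0.501 CPM in the homecage (SD, n = 2), and those ranges overlapped.

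None of the 5 genes was called between DN and control mice, and the receptors with steady levels gave narrow intervals. Adcyap1r1 was at 158.9 ± 10.4 CPM in DN mice (SD, n = 5) and 152.9 ± 3.72 CPM in controls (SD, n = 6). Vipr1 was at 20.5 ± 1.25 and 20.75 ± 1.36 CPM. The background was 2 of 22391 genes called (0.00893%), with 67 genes (0.299%) whose groups did not overlap. By edgeR 0 of the 5 were called and 0 had an unadjusted p under 0.05, by DESeq2 likewise, and all 5 overlapped.

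Vip was at 17.5, 14.6, 25.6 (replicate 3), 17.8 and 18.8 CPM in the DN mice, and the 6 controls ran from 15.3 to 20.8 CPM with a median of 17.0. Its log2 fold change was 0.10 (95% interval -0.19 to 0.39). Adcyap1 was at 3.89, 3.34, 9.57 (replicate 3), 3.87 and 4.08 CPM, and the controls ran from 3.62 to 5.86 CPM with a median of 4.48. For both peptide genes 1 DN library, replicate 3, stood above all controls while the other 4 lay within or below their range. The log2 fold change of Adcyap1 was 0.09 (95% interval -0.52 to 0.71). Without DN replicate 3 the values were -0.03 for Vip and -0.29 for Adcyap1, neither of them called. In that library the interneuron markers summed to 1217 CPM, within the 1121 to 1242 CPM of the other DN libraries. Its sum of mossy cell markers, 43.05 CPM, was the highest of experiment 1, and its sum of CA pyramidal cell markers, 310.1 CPM, was the lowest. Its cortical markers summed to 171.4 CPM, the highest of the DN libraries and below the highest control (176.4 CPM), and its granule cell markers to 401.2 CPM, above DN replicate 4 only (370.6 CPM). The 8 choroid plexus markers all had lower fitted values in DN mice (median -0.88), with 0 called by edgeR and 0 at an unadjusted p under 0.05. Their sums were 25.85 to 1646 CPM in DN and 19.76 to 4124 CPM in control libraries, so the groups overlapped. DN replicate 3 had the lowest of the DN sums. The part of these markers in the Vip and Adcyap1 values was not tested.

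Among the receptors, Vipr1 differed by -0.02 on the log2 scale between DN and control mice (95% interval -0.14 to 0.10). For Adcyap1r1, DN replicates 1 to 5 read 157.5, 156.5, 151.6, 176.8 and 151.9 CPM, and the controls read 147.0 to 156.6 CPM, with a median of 154.4. Replicate 4 stood apart from the rest. The log2 fold change was 0.06 (SE 0.0386, 95% interval -0.02 to 0.14), and without replicate 4 it was 0.01. Replicate 4, the highest of all 19 libraries for Adcyap1r1, had the lowest sum of granule cell markers of all 19, 370.6 CPM. Vipr2 was at 7.09, 3.57, 3.41, 1.89 and 4.95 CPM in DN mice, and the controls ran from 3.06 to 8.15 CPM with a median of 4.55. The spread within both groups was wide, so the interval was too: -0.25 on the log2 scale (SE 0.383, 95% interval -1.11 to 0.62). That value was -0.53 without DN replicate 1, -0.05 without DN replicate 4 and -0.03 without control replicate 3. The edgeR adjusted p was 0.999 for each of the 5 genes.

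The precursors of VIP and PACAP varied together from library to library. Over the 16 tTA+ libraries, with each experiment's mean subtracted from log2 CPM, Pearson's r between Vip and Adcyap1 was 0.858 (permutation p 1.9e-04, adjusted over 10 pairs 0.0019). Spearman's rho was 0.738 (permutation p 0.00254, adjusted 0.0254). Within experiment 1 r was 0.910 over 11 libraries, and within experiment 2 it was 0.821 over 5. Exposure and DN were not subtracted, so differences between the groups of an experiment enter r and its permutation p. The libraries farthest from the median of Vip were DN replicate 3 and SOR replicate 3 of experiment 2, and without them r was 0.679 (permutation p 0.013, n = 14). Adjusted over the 10 pairs, each without its own 2 farthest libraries, that p was 0.130, so past the threshold the relation rests on those libraries. None of the other 9 pairs passed, the nearest being Vipr1 with Vipr2 (r -0.492, permutation p 0.0164, adjusted 0.0819; rho -0.482, permutation p 0.0301, adjusted 0.150; r -0.536 without the 2 libraries farthest from the median of Vipr1). Neither peptide gene passed with any receptor gene.

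**Figure D4:**
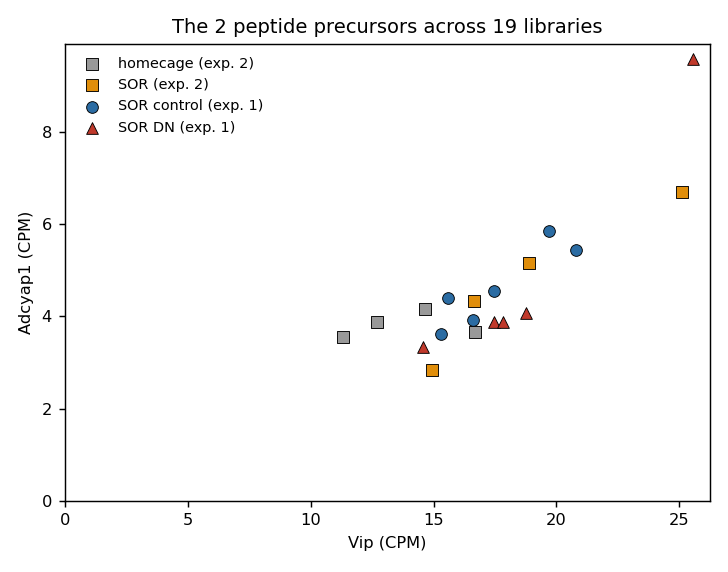
Adcyap1 against Vip (CPM on both axes) in the 19 libraries, with markers for the 4 groups. The libraries with the highest values of both genes are DN replicate 3 (25.6 and 9.57 CPM) and SOR replicate 3 of experiment 2 (25.1 and 6.71 CPM).

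Of 26 genes of Gs, adenylyl cyclase and protein kinase A signalling, the route downstream of these receptors, all 26 were tested and 0 were called by edgeR in each of the 3 comparisons. Those with an unadjusted p under 0.05 numbered 5 with tTA, 1 after SOR and 1 with DN, and the medians were 0.06, 0.03 and 0.00 on the log2 scale. Of 21 other class B peptide hormones and receptors, such as the secretin, glucagon and corticotropin-releasing hormone families, 14 were tested in experiment 2 and 13 in experiment 1. By edgeR 0 of them were called with tTA (3 unadjusted, median 0.10), 0 after SOR (2 unadjusted, median -0.04) and 0 with DN (0 unadjusted, median -0.03). All 8 genes of peptide processing and breakdown were tested, and 0 were called by edgeR with tTA (1 unadjusted, median 0.07), after SOR (1 unadjusted, median 0.06) or with DN (2 unadjusted, median -0.02). Over all genes tested, an unadjusted p under 0.05 was found in 1307 of 22904 with tTA (5.71%), 1368 of 22904 after SOR (5.97%) and 858 of 22391 with DN (3.83%). The medians over all genes tested were 0.01, 0.00 and 0.00 in the same order of comparisons.

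For each of the 5 genes, the genes with the most similar pattern over the 19 libraries were ranked among 21983, by Pearson's r of log2 CPM with each experiment's mean subtracted. These are descriptions over libraries that share depth and dissection, with no test. The highest for Vip were Gm11549 (r 0.867), Med8, a Mediator subunit (0.862), and Pak1, a kinase that acts on actin (0.856). For Adcyap1 they were Rims3 (0.910), Dlg1 (0.883) and Rims2 (0.870), of which Rims2 and Rims3 encode proteins of the presynaptic active zone and Dlg1 a synaptic scaffold. Leaving out DN replicate 3 and SOR replicate 3 of experiment 2 lowered these 6 values to between 0.702 and 0.839.

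The receptors had other neighbours in this ranking, and theirs changed little without those libraries. For Vipr1 the highest were Cacna1i, a T-type calcium channel (0.810), Txndc11 (0.809) and Adar, an RNA-editing enzyme (0.807). For Vipr2 they were Arsi (0.882), Tdo2, which breaks down tryptophan (0.864), and Igsf1 (0.849). For Adcyap1r1 they were Kirrel3, an adhesion molecule (0.879), Cxcl12, a chemokine (0.876), and Syt17 (0.867). Over the 17 remaining libraries these 9 values ran from 0.790 to 0.895. For Vipr2 and Adcyap1r1 the libraries of both tTA genotypes enter, so the tTA difference is part of the likeness.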

How the data were processed

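The authors deposited 1 table of whole-number counts per gene for 19 libraries of ribosomal-RNA-depleted total RNA extracted with Trizol, per the labels' protocols. The submitters' processing notes list STAR, SAMtools 1.6, featureCounts 1.4.4 and the mm10 build, with no roles. Annotation and strand use are not given in the sources used here, and they decide how overlapping genes share counts. Symbols and positions came from GENCODE M21 (GRCm38), which held 51596 of the 51789 identifiers.

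Each experiment was fitted apart with edgeR 4.0.16 in R 4.3.3 (TMM, filterByExpr, robust quasi-likelihood F test, two-sided, Benjamini-Hochberg over all genes tested). Calls were made where the adjusted p fell under 0.05. DN was compared in experiment 1 (5 against 6 libraries). SOR (4 against 4) and tTA (5 against 3) were compared in 1 fit of experiment 2. Standard errors are the size of the log2 fold change over the square root of its F statistic. Permutation tests of correlations were two-sided, with 100000 resamples within experiments. The fitting was tested on simulated data with the same dispersion for every gene, so that test does not cover genes whose spread differs. Libraries are counted as mice here, following the genotype given for each, but the labels do not state that each replicate is a separate animal. The p-values then measure only the spread between these libraries, which may be technical.

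All 5 genes were named in every comparison. List members were named where called, up to 4 per list by smallest p, and likeness took the 3 highest r per gene. Genes and lists were chosen with earlier results of these data known. The alternatives were DESeq2 size factors, no filter, DESeq2 1.42.0, the replicate number as a block, no tTA term, tTA+ or homecage mice alone, longest transcript lengths and each library left out.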

Additional observations from a re-analysis of the deposited data

Results flagged for a closer look

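Within the DN group of 5 mice, 1 library stood far from the others in each of 2 genes. Adcyap1 in DN replicate 3 was at 9.57 CPM, with a gap to the next library of 0.882 of the whole range of the group, above the limit of 0.710 for 5 samples. Adcyap1r1 in DN replicate 4 was at 176.8 CPM, with a gap of 0.766 of the range. Chance gives such a gap in about 1 of 20 groups, and 25 combinations of gene and group were looked at.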

How the results depend on the processing

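Whether replicate numbers pair the libraries was not settled. Same-numbered libraries correlated at -0.116 to 0.512 in experiment 1 and -0.058 to 0.71 in experiment 2. Libraries with different numbers were not compared. In the tTA comparison only replicate 2 differs in genotype within its number. With the replicate block, 1 gene was called after SOR (11 without it) and 0 with tTA (82 without it, 389 at an unadjusted p under 0.05), the members called with tTA went from 1 to 0, Vipr2 was at 2.30, Vip at -0.046 and Adcyap1 at -0.78. With DN 2 genes were called with and without the block.

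Against 11 genes called after SOR, no filter gave 82, DESeq2 94, no tTA term 20, and tTA+ mice alone 0 by edgeR (374 unadjusted), and leaving out 1 library gave 1 to 48. Against 82 with tTA, no filter gave 265, DESeq2 250 and homecage mice alone 944, and leaving out 1 library gave 10 to 290. SOR replicate 3, the smallest library, gave both the 48 and the 290 when left out. Members called with tTA ranged from 0 to 1. Vipr2 after SOR changed sign without the tTA term (0.15), and Adcyap1 with tTA in homecage mice alone (-0.018). Leaving out 1 library moved uncalled values across 0: with DN, Vip from -0.034 to 0.17, Adcyap1 from -0.29 to 0.20 and Vipr1 from -0.053 to 0.016, and with tTA, Adcyap1 from -0.063 to 0.16 and Vipr1 from -0.15 to 0.12. The causes were not tested. The lowest counts of Vipr2, 15 to 30, limit its fold.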
